A study of Mus musculus with 7 samples.

Results

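The 10 genes described here encode cytokines that skin epithelium is known to release: Tslp, Il33, Il1a, Il1b, Il1rn, Il18, Il24, Csf1, Csf2 and Csf3. They were chosen by name, as alarmins and colony-stimulating factors, out of 18193 genes on the array that could be given a single symbol. All 10 were measured, by 15 probe sets in all, of which 4 were for Csf1, 3 for Il1rn and 1 for each of the others. Each gene is given by its brightest probe set unless stated.

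RNA came from mouse skin tumour cells sorted for the surface antigens Cd34 and Epcam, and was measured on 7 Affymetrix arrays. The tumours were induced with DMBA, a carcinogen, and TPA, a tumour promoter, and were either papillomas, the benign form (3 arrays), or carcinomas, the malignant form (4 arrays). The sample descriptions put Nr2f2 before the tumour type on all 7 arrays and give no genotype, strain, age or duration of treatment. The carcinoma arrays carry the replicate numbers 1, 2 and 3 and the tag GFP, and the papilloma arrays the numbers 1 and 2 and the tag GFP. The labels do not explain the tag. Nor do they name the animals behind the arrays, and the spread that the p-values rest on, which is that between these samples, may be technical. All values are log2 levels after RMA, a method that corrects background, equalises the arrays and summarises the probes of a probe set, so a difference of 1 is a doubling. Levels are compared within a gene and not between genes.

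The arrays with the tag GFP stood apart from the others before any cytokine was considered. Across the arrays the median level was 5.38 to 5.51, and the 95th percentile of 44 probe sets for olfactory receptors, used as a background level, was 4.98 to 5.64. Papilloma 2 and carcinoma 3 had the highest background levels, 5.639 and 5.491, against 4.983 to 5.312 on the others. Their medians were also the highest, and their upper quartiles the lowest, 7.316 and 7.455 against 7.613 to 7.786. The part of this in the cytokine levels of these arrays was not tested. Control probe sets for the ends of Gapdh, a check of RNA length, differed by 3.19 on both GFP arrays (the 3′ end higher) and by -0.043 to 0.062 on the other 5. Epcam read 9.59 on carcinoma GFP and 8.28 on papilloma GFP, against 10.52 to 11.97 on the other arrays, while Cd34 read 11.73 and 11.66 against 8.76 to 10.80. Krt14, a keratin of basal keratinocytes, read 12.72 and 13.13 on the GFP arrays against 13.53 to 14.24 on the others, and was called lower by tag (limma difference -0.98, adjusted p 0.0364).

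Alarmins are cytokines that epithelial cells hold or make quickly, and that tell immune cells of damage. Tslp acts through a receptor made of Crlf2 and Il7r on dendritic and other immune cells, and Il33 acts through Il1rl1 with Il1rap. Il1a and Il1b both signal through Il1r1, and Il1rn is the secreted antagonist that occupies the same receptor without activating it. Il18 and Il1b are made as precursors that caspase-1 cuts, Il24 belongs to the IL-20 family, and Csf1, Csf2 and Csf3 support macrophages, a broad range of myeloid cells and neutrophils respectively.

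Promoter windows from RefSeq, assembly GRCm38.p6, were used for 7 of the 10 genes, as 10 windows of the 250 bases before a transcription start. Tslp, Il24 and Csf3 were left out, and the last 2 of the 3 Il1rn windows overlap. They were searched on both strands for TGANTCA, the AP-1 motif, for TATAAA, the TATA box, and for the NF-kB motif. AP-1 is the class of factor that TPA is known to induce. An AP-1 match was found in 2 of the 10 windows, against 6.7% of 32851 windows of the same length, and a TATA match in 5, against 12.4%. The NF-kB motif, a loose pattern, matched 3 windows, against 45.8%, and a match of any of these motifs is a description of letters and not a site. The 3 windows below belong to the genes of the IL-1 receptor axis, whose differences between arrays with and without the tag GFP did not all have the same sign. Capitals mark AP-1 and TATA matches, and each window is read 5′ to 3′ on the strand of the gene.
Il1a, chr2:129309973-129310222, minus strand: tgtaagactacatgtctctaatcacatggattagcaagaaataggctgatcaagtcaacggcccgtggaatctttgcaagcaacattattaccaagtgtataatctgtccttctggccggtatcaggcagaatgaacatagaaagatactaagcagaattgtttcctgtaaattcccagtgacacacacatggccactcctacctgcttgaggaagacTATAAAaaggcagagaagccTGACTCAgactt
Il1b, chr2:129371140-129371389, minus strand: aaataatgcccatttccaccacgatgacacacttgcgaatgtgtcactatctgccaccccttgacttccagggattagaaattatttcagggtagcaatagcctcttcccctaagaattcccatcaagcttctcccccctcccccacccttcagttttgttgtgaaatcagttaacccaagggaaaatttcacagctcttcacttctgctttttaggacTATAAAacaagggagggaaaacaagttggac
Il1rn, chr2:24336610-24336859, plus strand: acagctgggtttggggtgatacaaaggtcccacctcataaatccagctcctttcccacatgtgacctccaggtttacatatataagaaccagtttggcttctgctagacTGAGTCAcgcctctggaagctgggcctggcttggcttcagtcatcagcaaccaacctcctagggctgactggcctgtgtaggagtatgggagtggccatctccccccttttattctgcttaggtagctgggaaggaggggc
The Il1a window holds TGACTCA beginning 12 bases before the start, with TATAAA beginning 32 bases before it. The Il1b window holds TATAAA beginning 31 bases before the start and no AP-1 match. The Il1rn window, the first of 3 starts of that gene, holds TGAGTCA beginning 141 bases before the start and no TATA match, and the other 2 Il1rn windows hold neither. Il33 had a TATA match in both of its windows, the nearer one beginning 29 bases before the start.

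The first comparison asked which cytokines differ between malignant and benign tumours. None of the 10 genes passed the test in carcinoma against papilloma (limma, Benjamini-Hochberg adjusted p under 0.05 over 18193 genes). The background is the same, since 0 of 18193 genes were called, or 0%, and 112 had an unadjusted p under 0.05. These were 0.62% of genes, fewer than a calibrated test gives where nothing differs. The fit held no term for the tag, so differences by tag counted in its spread. They also entered its differences in part, as the tag made up unequal shares of the carcinoma and papilloma arrays. With the tag as a covariate Csf3 differed by 0.88 rather than 1.14, Il24 by -0.56 rather than -0.32 and Tslp by -3.02 rather than -3.10. In that fit 331 genes had an unadjusted limma p under 0.05, again fewer than a calibrated test gives, and 0 were called. Of the 10, 1 gene, Tslp, had an unadjusted p under 0.05 in the fit without the tag. The carcinoma mean was higher for 4 genes and lower for 6, with a median difference of -0.0022 against -0.015 over all genes. The median size of the difference, regardless of sign, was 0.72, against 0.14 over all genes. The members also varied more over the arrays: 8 of the 10 spanned over 2 log2 units, against 3189 of 18193 genes. The part of this wider span in the size was not tested. No member had all carcinoma arrays above all papilloma arrays, as 0.506% of all genes did, and none had all of them below, as 0.912% did. With 4 arrays against 3, an exact two-sided permutation test cannot give a p below 0.0571.

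Tslp, the cytokine that primes dendritic cells for type 2 immunity, had the second-largest difference of all genes between the tumour types. Its level was 11.74, 8.21 and 10.26 on papilloma 1, 2 and GFP. On carcinoma 1, 2, 3 and GFP it was 7.24, 8.33, 4.21 and 8.10. Papilloma 1 and papilloma GFP thus lay above every carcinoma array, whereas papilloma 2 fell among the carcinomas, just below carcinoma 2, and carcinoma 3 was at background. The means were 10.07 ± 1.78 (SD, n = 3) and 6.97 ± 1.90 (SD, n = 4). They differed by -3.10 (SE 1.21), which is an 8.57-fold higher level in papillomas. In limma the unadjusted p was 0.0374 and the adjusted p was 1, and the exact permutation p was 0.114. Only 2 genes of 18193, Tslp among them, had a difference of at least this size.

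The Tslp difference held its direction without the GFP arrays, at -3.38 (SE 1.51), but its size rested on single arrays. It was -2.18 without carcinoma 3, -2.26 without papilloma 1 and -4.03 without papilloma 2, and its adjusted p was 1 or close to it throughout. Between arrays of the same label, which are not known to be pairs, it was -4.50 for number 1, 0.12 for number 2 and -2.16 for GFP. Of 8 neutrophil markers 0 were called, 1 had an unadjusted limma p under 0.05 and 3 had a higher carcinoma mean, with a median difference of -0.020. Their summed level was 8.46 to 10.68 in carcinomas and 10.57 to 11.53 in papillomas. S100a8 and S100a9, which keratinocytes can also express, differed by -2.44 and -1.72, and the other 6 markers by -0.083 to 0.20. In other lists the carcinoma mean was higher for 10 of 10 keratinocyte, 0 of 12 endothelial, 1 of 11 fibroblast and 7 of 12 myeloid markers. It was higher for 1 of 8 mast cell, 6 of 9 T and NK cell, 1 of 5 Langerhans cell and 0 of 6 melanocyte markers. None of these markers had an unadjusted limma p under 0.05, and their part in the Tslp difference was not tested. In such sorted populations fewer cells of a type and less RNA per cell cannot be told apart.

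Il33, a nuclear alarmin released when cells are damaged, did not separate the tumour types. It read 7.71, 7.94, 4.03 and 8.51 on carcinoma 1, 2, 3 and GFP and 7.50, 5.84 and 8.08 on papilloma 1, 2 and GFP. Carcinoma 3 was again the lowest and at background, and both GFP arrays were the highest. The difference of -0.092 (SE 1.14) was far smaller than the spread within carcinomas, whose SD was 2.04 (n = 4).

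**Figure D1:**
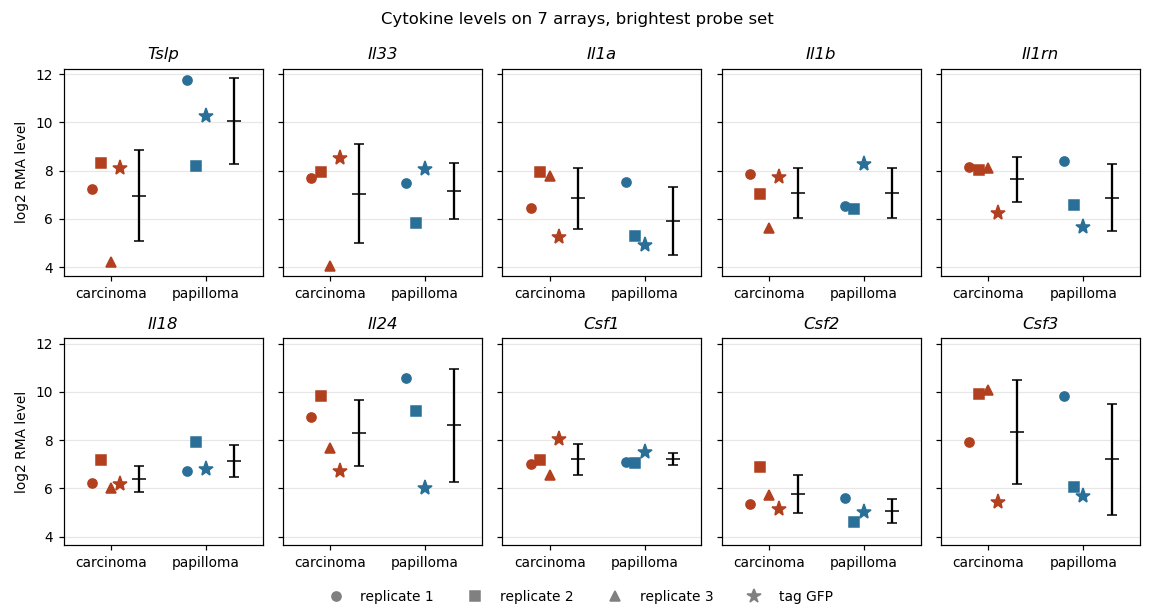
Log2 RMA level of each of the 10 cytokine genes (vertical axis, 1 panel a gene) on the 4 carcinoma arrays (red) and 3 papilloma arrays (blue), with circles, squares and triangles for replicates 1, 2 and 3 and stars for the GFP arrays. The black mark beside each group is its mean with the SD as a bar, and the groups overlap in every panel, including Tslp, where papilloma 2 lies level with the higher carcinomas.

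The genes of the IL-1 receptor axis gave no call between tumour types either. Il1a, an alarmin stored in keratinocytes, read 6.46, 7.94, 7.76 and 5.23 on carcinoma 1, 2, 3 and GFP and 7.52, 5.30 and 4.92 on papilloma 1, 2 and GFP. Il1rn, its antagonist, read 8.17, 8.04, 8.10 and 6.24 on the carcinomas and 8.40, 6.56 and 5.68 on the papillomas in the same order. Both genes were low on the GFP arrays and on papilloma 2, and high on papilloma 1. The carcinoma mean was higher by 0.93 (SE 0.87) for Il1a and by 0.76 (SE 0.75) for Il1rn, with exact permutation p of 0.343 and 0.514. The 3 probe sets of Il1rn gave differences of 0.76, 0.57 and 0.69.

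Il1b, the inducible agonist, followed another order. It read 7.87, 7.05, 5.64 and 7.74 on carcinoma 1, 2, 3 and GFP and 6.54, 6.41 and 8.27 on papilloma 1, 2 and GFP, so that papilloma GFP was highest and carcinoma 3 lowest. The tumour types had the same mean, with a difference of -0.0013 (SE 0.68). Il18, which keratinocytes make constitutively, read 6.24, 7.18, 6.0 and 6.18 on the carcinomas and 6.71, 7.91 and 6.82 on the papillomas. Between arrays of like label the carcinoma was lower, by -0.47, -0.73 and -0.64 for number 1, number 2 and GFP. The labels do not say that such arrays are pairs. The difference over all arrays was -0.75 (SE 0.40), with an unadjusted limma p of 0.106 and an exact permutation p of 0.171, and carcinoma 2 lay above papilloma 1 and papilloma GFP.

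Il24 and the colony-stimulating factors did not separate the tumour types either. Il24 read 8.95, 9.84, 7.66 and 6.73 on carcinoma 1, 2, 3 and GFP and 10.60, 9.20 and 6.03 on papilloma 1, 2 and GFP, a difference of -0.32 (SE 1.19). Csf3, the neutrophil growth factor, read 7.92, 9.91, 10.09 and 5.45 on the carcinomas and 9.84, 6.08 and 5.70 on the papillomas, a difference of 1.14 (SE 1.44). Il24 was lowest on both GFP arrays, and so was Csf3, for which papilloma 2 was nearly as low. Csf2, the granulocyte and macrophage factor, was above background on only 4 of 7 arrays, with its highest level, 6.87, on carcinoma 2 and its lowest, 4.59, on papilloma 2. Its difference was 0.70 (SE 0.46), with an exact permutation p of 0.229. Csf1, the macrophage factor, stayed within 6.55 and 8.07 on all arrays and differed by -0.0032 (SE 0.36), and its 3 dimmer probe sets gave -0.29, 0.27 and -0.0054.

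The second comparison set the 2 arrays with the tag GFP against the 5 without it, with tumour type as a covariate. Il24 and Il1rn were lower on the GFP arrays, while no member was called higher. Over all genes, 2159 of 18193 were called higher, or 11.9%, and 1442 were called lower, or 7.93%, so 2 of 10 called lower and 0 of 10 called higher are to be read against these shares. Of the 10 genes 5 had an unadjusted p under 0.05, as did 32.0% of all genes (5817 of 18193). Both GFP arrays lay below all untagged arrays for 4 members, Il1a, Il1rn, Il24 and Csf3, against 19.9% of all genes, and above all of them for 2, Il33 and Csf1, against 21%. The median difference was -0.43, against -0.054 over all genes, and the median size was 1.51 against 0.39. The wider span of the members applies to this size as well. Of the genes called in this comparison 60.0% were higher. This share was 41.9% when each array was centred on its median over the 18193 genes, which moved the median of all genes by -0.23 (1759 higher and 2442 lower). The medians given above were taken over all probe sets instead, and there the GFP arrays lay within the range of the others. After a further quantile normalization the share of higher calls was 48.6% (2134 higher and 2257 lower), where mainly the lower calls had increased in number.

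Markers of other cell types moved with the tag. All 12 endothelial markers and 10 of 11 fibroblast markers were called higher on the GFP arrays, with median differences of 5.25 and 4.06, and 8 of 12 myeloid markers were called higher, with a median of 1.34. The summed level of the endothelial markers was 14.87 to 14.95 on the GFP arrays and 9.48 to 10.05 on the others. For fibroblast markers it was 15.31 to 16.06 against 9.63 to 12.85, and for myeloid markers 11.59 to 11.95 against 9.47 to 10.61. Of 10 keratinocyte markers 7 were called lower, with a median of -1.32 and summed levels of 14.83 to 14.85 against 15.50 to 16.10. Of 8 neutrophil markers none was called by limma, with summed levels of 9.73 to 10.57 against 8.46 to 11.53. Called higher were 5 of 8 mast cell markers, 3 of 9 T and NK cell markers, 3 of 5 Langerhans cell markers and 2 of 6 melanocyte markers. The part of these cells, and of the Gapdh difference given above, in the cytokine differences by tag was not tested.

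Il24 was the member with the largest called difference by tag. Its levels on the GFP arrays, 6.73 and 6.03, lay below the lowest untagged array, carcinoma 3 at 7.66, and the mean was 6.38 ± 0.49 (SD, n = 2) against 9.25 ± 1.09 (SD, n = 5). It was lower by 2.92 on the log2 scale (limma difference -2.92, SE 0.70, adjusted p 0.0291), a 7.58-fold higher level without the tag. The call was lost without carcinoma 1 (adjusted p 0.0592), carcinoma 2 (0.0572), carcinoma GFP (0.0965) or papilloma GFP (0.266).

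Il1rn fell on the GFP arrays by all 3 of its probe sets. The means of the brightest were 5.96 ± 0.40 (SD, n = 2) and 7.85 ± 0.73 (SD, n = 5), with a limma difference of -1.84 (SE 0.45, adjusted p 0.0304) and a 3.57-fold higher level without the tag. In a fit over every probe set the 3 differences were -1.84, -2.15 and -1.61, with limma adjusted p of 0.0381, 0.0164 and 0.0453. The dimmer probe sets were below background on papilloma GFP, at 4.755 and 4.889 against 5.312, so their differences may be understated. The dimmest was also below it on papilloma 2, at 5.595 against 5.639. The call of the brightest probe set was lost without carcinoma 1 (0.0642), carcinoma 2 (0.0653), carcinoma 3 (0.0519), carcinoma GFP (0.252) or papilloma GFP (0.179), while its difference remained between -2.21 and -1.47 over the 7 fits that each left out 1 array.

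Csf3 and Il1a were also lowest on the GFP arrays but did not pass the test. Csf3 averaged 5.58 ± 0.17 (SD, n = 2) there and 8.77 ± 1.74 (SD, n = 5) elsewhere. On carcinoma GFP and papilloma GFP it was close to background, at 5.45 and 5.70 against 5.21 and 5.31. Its limma difference was -3.10 (SE 1.08, adjusted p 0.0954), and papilloma 2 at 6.08 was close to the GFP arrays. Il1a averaged 5.08 ± 0.22 (SD, n = 2), close to background, and 6.99 ± 1.11 (SD, n = 5). The limma difference was -1.84 (SE 0.66, adjusted p 0.104), again with papilloma 2 close by at 5.30. Without papilloma 2 both passed, at a limma adjusted p of 0.0106 for Csf3 and 0.0190 for Il1a. With array weights both passed as well, at a limma adjusted p of 0.00319 for Csf3 and 0.00470 for Il1a. Il1a also passed when the arrays were centred on their medians.

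Csf1, Il33, Il1b and Tslp had positive differences by tag, and none passed in the fit used here. Csf1 was higher on both GFP arrays, 8.07 and 7.50, than on any other, 7.18 at most, with a difference of 0.82 (SE 0.25, limma adjusted p 0.0650), and its other probe sets gave 0.41, 0.26 and 0.51. Csf1 passed with array weights (limma adjusted p 0.0105) and with no covariate (0.0410). Il33 differed by 1.70 (SE 1.09, limma adjusted p 0.340), and passed only without papilloma 2 and carcinoma 3, at 0.65 (limma adjusted p 0.0416). Il1b differed by 1.32 (SE 0.57, limma adjusted p 0.165), and carcinoma 1 lay above carcinoma GFP. Tslp differed by 0.93 (SE 1.30, limma adjusted p 0.675), a sign that turned to -0.45 without papilloma 2 and carcinoma 3. Il18 and Csf2 differed by -0.38 (SE 0.42) and -0.48 (SE 0.48).

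**Figure D2:**
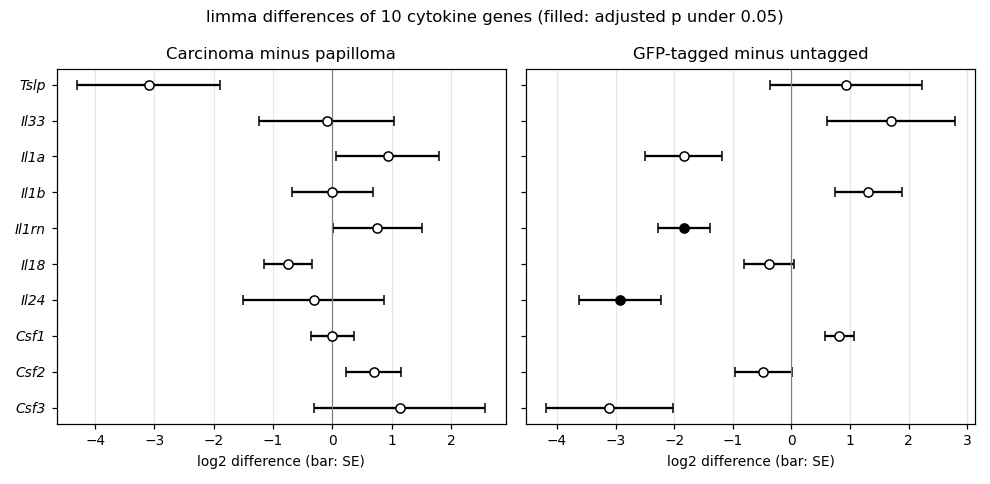
limma differences in log2 level (horizontal axis, bars are SE) of the 10 cytokine genes, for carcinoma minus papilloma on the left and GFP-tagged minus untagged on the right, with filled points for an adjusted p under 0.05. On the left no point is filled and Tslp lies farthest from 0, at -3.10. On the right Il24 and Il1rn are filled, at -2.92 and -1.84, and Csf3 lies as far out with a wider bar.

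Whether the difference between tumour types itself changed with the tag was tested as an interaction. No gene was called by limma, 0 of 18193 or 0%, with 389 at an unadjusted p under 0.05, and the smallest unadjusted p among the 10 cytokines was 0.180, for Csf1. Each GFP group holds a single array, so the spread in that fit comes from the untagged arrays.

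The balance of IL-1 agonist and antagonist was followed as the difference of log2 levels within each array, which shows unequal change across arrays and not relative amounts. Il1a minus Il1rn was -1.72, -0.097, -0.33 and -1.01 on carcinoma 1, 2, 3 and GFP and -0.88, -1.27 and -0.75 on papilloma 1, 2 and GFP. The GFP arrays lay inside the range of the others, with means of -0.88 and -0.86 with and without the tag. Il1a was at background on papilloma GFP and papilloma 2 (4.92 and 5.30, against background levels of 5.31 and 5.64) and barely above it on carcinoma GFP (5.23 against 5.21), so on these arrays the balance has only a bound and cannot show whether it stayed level. Between tumour types it differed by 0.18 (exact permutation p 0.743).

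Il1b minus Il1rn was higher on the GFP arrays. It was -0.30, -0.99, -2.46 and 1.5 on carcinoma 1, 2, 3 and GFP and -1.86, -0.15 and 2.60 on papilloma 1, 2 and GFP, so both GFP arrays lay above all 5 others. Where the difference reaches 0 depends on the probes and carries no meaning. On papilloma GFP the Il1rn level of 5.68 was not far above the background level of 5.31. The means were 2.05 with the tag and -1.15 without, a difference of 3.20, with an exact two-sided permutation p of 0.0952, the smallest that 2 arrays against 5 can give. Between tumour types the difference was -0.76 (exact permutation p 0.571). The myeloid marker sums given above were higher on the same 2 arrays, and their part in this balance was not tested.

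**Figure D3:**
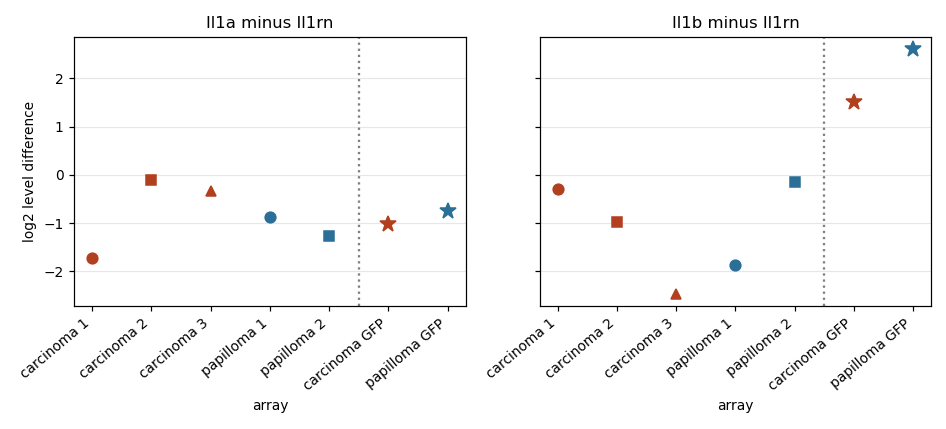
Difference of log2 levels within each array (vertical axis) between Il1a and Il1rn on the left and between Il1b and Il1rn on the right, for 4 carcinoma (red) and 3 papilloma (blue) arrays, with the GFP arrays as stars right of the dotted line. On the left the stars lie among the other points, with Il1a at or close to background there, and on the right they are at 1.5 and 2.60 while the other arrays are between -2.46 and -0.15.

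The receptors of these cytokines were called higher by tag in 7 of 17 measured cases and lower in none, against 11.9% and 7.93% of all genes. The median difference was 0.29, against -0.054 over all genes. Csf2rb, the shared beta chain of the Csf2, Il3 and Il5 receptors, and its mouse copy Csf2rb2 gave the largest differences. Csf2rb2 serves the Il3 receptor alone, so it counts among the 17 without being a receptor of the 10 cytokines. Csf2rb2 read 10.36 and 10.03 on carcinoma GFP and papilloma GFP and 4.72 to 5.27 on the others, where it was near background, a difference of 5.23 (SE 0.23). Csf2rb read 9.73 and 9.49 against 3.61 to 5.65, a difference of 4.91 (SE 0.56), and as the copies are alike in sequence their probes may share signal. Csf1r, the receptor of Csf1 and a macrophage marker, read 9.88 and 9.61 against 6.02 to 7.18, a difference of 3.21 (SE 0.31). The other called receptors were Il7r, Crlf2, Il1r1 and Sigirr, at 2.15, 2.08, 2.07 and 1.10, so both chains of the Tslp receptor were among them.

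Csf3r, the receptor of Csf3, read 6.04 and 6.05 on the GFP arrays, within the range of 5.23 to 6.19 on the others. Between tumour types 0 of 17 receptors were called and none had an unadjusted p under 0.05. The smallest p belonged to Csf2ra, with a carcinoma minus papilloma difference of -0.61, and to the decoy Il1r2, with -1.13. Il1r2 was highest on papilloma 2, at 9.34, and lowest on carcinoma 1, at 5.28. The endothelial, fibroblast and myeloid marker sums above moved with the receptors by tag, and their part in these differences was not tested. Csf1r belongs to both the receptor list and the myeloid list, so these lists are not independent. Il1rl1, the Il33 receptor, is not analysed here.

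**Figure D4:**
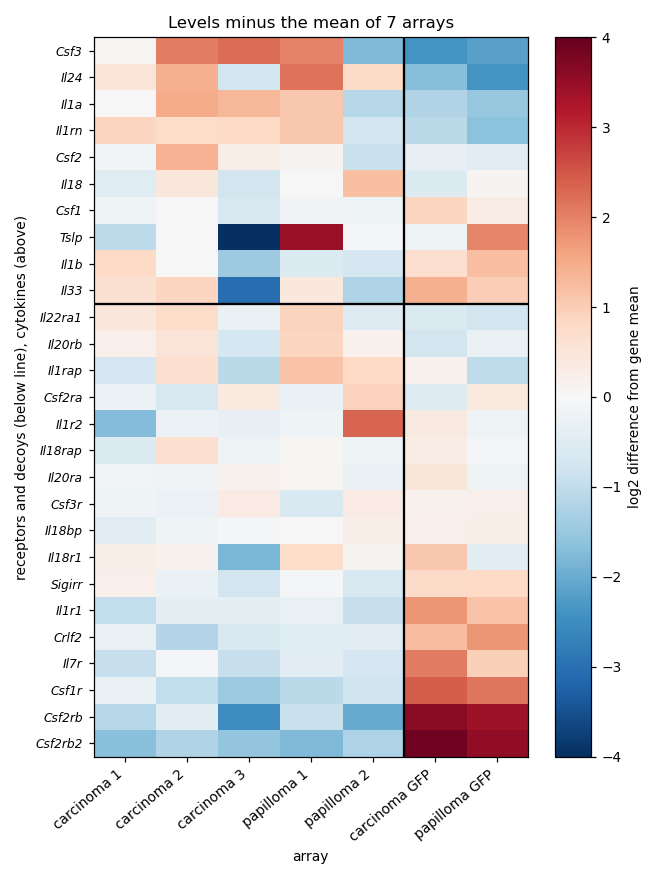
Log2 level minus the mean of the gene over the 7 arrays (colour, with values past the ends of the scale shown in the end colour) for the 10 cytokine genes above the black line and 17 receptors and decoys below it, with untagged arrays left of the vertical line and GFP arrays right of it. Csf3, Il24, Il1a and Il1rn are blue on both GFP arrays, and Csf1r, Csf2rb and Csf2rb2 are red there.

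Genes that process these cytokines or act downstream of their receptors gave few calls by tag, close to the 11.9% higher and 7.93% lower over all genes in most lists, and the genes named from them below are descriptions of single genes. By tumour type none was called and none had an unadjusted limma p under 0.05. Of 10 genes of the inflammasome and of cytokine release, 1 was called higher and 1 lower, with a median of -0.19. Casp1, which cuts the precursors of Il1b and Il18, read 8.74 and 8.62 on the GFP arrays and 9.73 to 10.60 on the others, a difference of -1.59. Gsdmd, whose cut form opens pores for their release, read 8.05 and 7.59 against 6.28 to 7.0, a difference of 1.16. The tumour types differed by -0.58 for the adaptor Pycard and -0.88 for Casp4, the smallest p of this list.

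Of 15 genes of IL-1 receptor and NF-kB signalling, 1 was called higher and 3 lower by tag, with a median of 0.062, beside the 11.9% and 7.93% of all genes. Irak3, a brake on the pathway that macrophages express, was higher by 2.62. Rel, an NF-kB subunit, was lower at -1.70, as were Nfkbiz at -1.48 and Tnfaip3 at -0.77, both of them targets of the pathway. Between tumour types Irak2 and Irak1 differed by 0.49 and 0.33. Of 12 genes of JAK and STAT signalling, 2 were called higher, Jak2 at 1.70 and Jak3 at 1.48, and the feedback inhibitor Socs1 was lower at -1.61, with a median of 0.36. Between tumour types Socs3 and Tyk2 differed by -0.51 and 0.27.

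Of 14 other cytokines of epithelium or of the IL-1 and IL-20 families, 1 was called higher and 2 lower by tag, beside 11.9% and 7.93% of all genes, with a median of -0.35. Lif read 5.97 and 6.11 on the GFP arrays and 6.77 to 8.97 on the others, a difference of -2.18 (limma adjusted p 0.0478). Tnf was lower as well, at -1.45 (limma adjusted p 0.00884). Osm, a cytokine made by myeloid cells, was higher at 1.34 (limma adjusted p 0.00448). Between tumour types Il6 and Il23a differed by -1.03 and 0.78, and neither had an unadjusted limma p under 0.05.

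The genes most like each cytokine over the 7 arrays were named by the root mean square distance between mean-centred profiles, among 3189 genes that spanned over 2 log2 units. Of the 10 cytokines 8 spanned as much, all but Il18 and Csf1. For Il1rn the nearest were Notum at 0.13, Celsr1 at 0.16 and Galnt6 at 0.18. Il1a was closest to Lama3 and Lamb3, chains of the laminin of the epidermal basement membrane, at 0.32 and 0.34, and to Rprd2 at 0.38, and Il1rn was its nearest fellow cytokine, at place 23 with 0.51. Lama3 read 11.76 and 11.70 on carcinoma 2 and 3, where Il1a was highest, and 9.46 on papilloma GFP, where it was lowest.

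Il1b lay closest to C1qb at 0.24, Dnajb14 at 0.25 and C1qa at 0.25, and C1qa and C1qb encode complement chains that macrophages make. Csf3 lay closest to Il1a, at 0.78, before Acsbg1 at 0.80 and Artn at 0.81. Il24 was nearest to Esco2, Gstm1 and 2610528A11Rik, at 0.47, 0.52 and 0.53, and Csf2 to Polm, Mad1l1 and Fjx1, at 0.23, 0.27 and 0.30. Il33 was nearest to Sprr2f, a cornified envelope gene, at 0.38, then to Timp1 at 0.47 and Kif26b at 0.48. For Tslp the nearest were Slc39a8 at 1.25, S100a9, which keratinocytes and neutrophils can express, at 1.27 and Ccl8 at 1.30. The distances are not scaled by the span of a gene, which was 7.535 for Tslp and 2.721 for Il1rn. They therefore do not rank the cytokines by how close their neighbours are. These distances describe 7 arrays that share tumour type and tag, and carry no test.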

How the data were processed

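Biotin-labelled RNA was measured on 7 Affymetrix mouse strip arrays, and the authors deposited log2 values normalized with RMA, per the labels' protocols. RMA and affy are the tools in the submitters' processing notes, without versions. That the scale is log2 was read from the values. RMA fits the probe signals of all arrays to 1 distribution, which removes much of a shift shared by most genes. The probe set values still differed between arrays, with upper quartiles of 7.316 to 7.786. Of 45101 probe sets, 34945 had 1 symbol and were not controls, 932 had several symbols, 9160 were unlisted, and 64 were controls. The brightest probe set on average stood for each gene, which left 18193 genes, and dim genes were kept.

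Groups came from the titles. Differences were fitted with limma 3.58.1 in R 4.3.3 (lmFit, eBayes), with Benjamini-Hochberg adjustment over all genes and a threshold of 0.05. The procedure was tested on simulated data. Exact permutation tests used SciPy 1.17.1. Python 3.11.15 with matplotlib 3.10.9 made the figures. The members, lists and rules were chosen with earlier results of these data known. Named beside the members were, from each pathway list, up to 3 genes with the largest called difference by tag and 2 with the smallest p by tumour type, and the 3 nearest profiles of each member that spanned over 2 units. Il7r, Crlf2, Il1r1, Sigirr, Tnfaip3, Csf3r, S100a8, Krt14, Cd34 and Epcam fall outside this rule and were named after their values were seen. List genes not matched to a symbol are not analysed here.

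Replicate labels recur in both tumour types. Deviations from the group means correlated across genes at 0.476 for number 1, 0.194 for number 2 and 0.861 for GFP, all above 0.1, but arrays of different numbers did so too, up to 0.683 for carcinoma 2 with papilloma 1. The fit with the replicate block is therefore an alternative only, and it left 0 genes called between tumour types.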

Additional observations from a re-analysis of the deposited data

Results flagged for a closer look

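A single array stood apart from the rest of its group in 8 of 82 groups of 4 or 5 arrays that were tested, over 41 profiles (the 15 probe sets of these cytokines, the 24 pathway genes named with them and the 2 IL-1 balances), and chance alone gives about 1 in 20. Some of the 24 pathway genes were named for a large difference by tag, so the count cannot be weighed against that rate. Il1rn accounts for 3. Its brightest probe set read 6.239 on carcinoma GFP, against 8.037 to 8.172 on the other carcinomas, and 6.563 on papilloma 2, against 8.037 to 8.396 on the other untagged arrays. A dimmer Il1rn probe set read 5.595 on papilloma 2, against 6.768 to 7.226. For Csf1 the brightest probe set read 6.551 on carcinoma 3, below 7.019 to 7.176 on the other untagged arrays, while a dimmer one read 7.042 on papilloma 2, above 6.0 to 6.251.

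On carcinoma GFP the beta chain Csf2rb2 read 10.362, against 4.784 to 5.270 on the other carcinomas. Jak2 read 10.088 there, against 8.199 to 8.498, and Jak3 read 8.016, against 6.237 to 6.478. These 3 genes were named for their large difference by tag, so their values on this array restate that choice.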

How the results depend on the processing

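Every alternative of the comparison of tumour types left 0 genes called. By tag 3601 of 18193 genes were called (19.8%), against 5591 of 34945 probe sets (16.0%) with every probe set fitted. The count of genes became 6819 with array weights, and ran from 861 (without carcinoma GFP; 1462 without papilloma GFP) to 3955 when single arrays were left out. The 2 cytokines called by tag became 5 with array weights and 5 without papilloma 2 and carcinoma 3, an alternative chosen after seeing the data, and 0 to 4 with single arrays left out: 0 without carcinoma 1, carcinoma 2 or either GFP array, 1 without carcinoma 3 and 4 without papilloma 2.

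Several differences between tumour types turned sign, most of them small, but that of Csf3, 1.14 in the main fit, did so as well. Il33 became 0.049 with the tag as a covariate, 0.91 with the replicate block and 0.26 without both arrays. Il1b became 0.0049 after centring, 0.22 with array weights, 0.11 with the tag as a covariate, 0.38 without the GFP arrays, 0.48 with the replicate block and 0.15 without both arrays. Csf1 became 0.0031 after centring, 0.065 with the tag, 0.21 with the replicate block and 0.13 without both arrays. Without both arrays Il24 became 0.19, Csf3 -0.0070 and, by tag, Tslp -0.45. With single arrays left out, Il33 ran from -0.74 to 0.91, Il1b from -0.33 to 0.60, Il24 from -1.61 to 0.68, Csf1 from -0.29 to 0.21, Il1a minus Il1rn from -0.054 to 0.49 and Il1b minus Il1rn from -1.79 to 0.44. The cause of these turns was not tested. The replicate block gave Tslp -2.18 and changed no call. Signals at background on 1 or more arrays, as for Csf2, Il1a, Il33, Tslp and the dimmer Il1rn probe sets, understate differences, and 7 arrays limit the precision.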
